A study of Mus musculus with 47 samples.

Results

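The adrenalectomy by genotype interaction asks whether muscle with a restored clock answers the loss of the adrenal glands as wild-type muscle does. The tissue was tibialis anterior, a shin muscle of mostly fast fibres, taken for RNA sequencing from female C57BL/6 mice fed ad libitum. Mice were killed at ZT0 (lights on) or ZT12 (lights off). The RE-RE mice carried Hsa-Cre(-/tg) and Syt10-Cre(-/tg) on a Bmal1(stopFL/stopFL) background. In them the clock gene Bmal1 (Arntl) is blocked everywhere except where Cre removes the stop, in brain under the Syt10 driver and in skeletal muscle under the Hsa driver, so other tissues lack it and both RE-RE groups carry the alleles. The interaction used 31 of the 47 libraries of the study, 1 per mouse and all those with ADX or sham surgery and no hormone injection. These were RE-RE ADX (8 libraries, ages 8 to 18 weeks), RE-RE sham (8, 9 to 14 weeks), WT ADX (7, 12 to 17 weeks) and WT sham (8, 9 to 12 weeks), each split into 4 libraries at ZT0 and 4 at ZT12 apart from WT ADX with 3 at ZT0. For every gene the difference ADX minus sham was averaged over ZT0 and ZT12 in each genotype, and the WT value was subtracted from the RE-RE value on the log2(FPKM + 0.01) scale. FPKM is fragments per kilobase of gene, scaled to the reads of the library. A positive interaction therefore means a higher ADX minus sham value in RE-RE than in WT.

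The adrenal cortex makes corticosterone, the main glucocorticoid of mice, whose blood level rises toward the active phase at night, and the adrenal medulla makes adrenaline. Glucocorticoids enter cells and bind the glucocorticoid receptor, a transcription factor that in muscle raises genes of protein breakdown, glutamine synthesis and lipid use, several of which are also under control of the clock activator BMAL1. Muscle in turn depends on mitochondrial genes driven by coactivators and nuclear receptors such as PGC-1α and the PPAR family.

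The depth recovered from the steps between low values ran from 15.9 to 35.6 M reads per library (median 23.0 M). Summed FPKM of 9 muscle fibre markers was 59100 to 84300 in every library, so all libraries carried the defining transcripts of the labelled tissue. A value of exactly 0 FPKM stood at 6103 places in 935 genes, and 48 of these genes average over 10 FPKM, so such a gene is described below as listed at 0, without a fold. Within their group, 24 libraries shared 16 to 80 exact low values with another library and 7 shared at most 1. These 7 stand apart below, 3 in RE-RE ADX, 2 in RE-RE sham and 2 in WT sham, and WT ADX had none of them. Where libraries of a group share exact values they may not be independent, and p-values measure only the spread between these libraries.

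Arntl (ENSMUSG00000055116, chromosome 7, 113207465 to 113314126), the restored gene, was read first. At ZT0 it had 10.7, 7.22, 8.13 and 11.4 FPKM in RE-RE ADX and 13.4, 15.2, 14.8 and 14.2 in RE-RE sham, beside 9.28, 7.14 and 5.82 in WT ADX and 14.2, 18.8, 16.2 and 18.0 in WT sham. At ZT12 it had 0.985, 3.99, 2.72 and 1.79 FPKM in RE-RE ADX, and in RE-RE sham 0.327 with the other 3 libraries listed at 0. The WT ADX libraries at ZT12 had 1.24, 1.46, 2.08 and 2.42 FPKM, and the WT sham libraries had 0.673, 0.123, 0.758 and 0. Both genotypes thus carried the transcript, and in both the ADX libraries were all below the sham libraries at ZT0 and all above them at ZT12.

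WT ADX differed from the other groups in a pair of genes that surgery is not known to act on. Nnt (ENSMUSG00000025453, chromosome 13, 119335448 to 119408997), a mitochondrial transhydrogenase that carries a deletion in the C57BL/6J substrain, was listed at 0 in 7 of 7 WT ADX libraries. It was at 8.11 to 22.2 FPKM in RE-RE ADX and 5.93 to 27.1 in RE-RE sham. In WT sham it was listed at 0 in 2 ZT12 libraries and had 4.97 to 15.0 in the other 6. Wdfy1 (ENSMUSG00000073643, chromosome 1, 79702262 to 79776143) had 2.93 to 4.52 FPKM in RE-RE ADX, 2.67 to 5.27 in RE-RE sham, 0.0574 to 0.622 in WT ADX and 1.81 to 4.11 in WT sham. The labels name no substrain, and a difference in genetic background between WT ADX and the other groups cannot be told apart from an effect of adrenalectomy in WT, here or in any result below.

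Of 12000 genes tested with limma, 2695 (22.5%) had an interaction at a Benjamini-Hochberg adjusted p under 0.05, 1659 (13.8%) higher in RE-RE and 1036 (8.63%) lower. The RE-RE arm by itself had 1949 calls (16.2%; 655 genes or 5.46% rose, 1294 or 10.8% fell) and the WT arm 5348 (44.6%; 2173 or 18.1% rose, 3175 or 26.5% fell). Without the 7 libraries that stand apart the interaction had 1174 calls (846 higher, 328 lower), of which 1168 were among the 2695, the RE-RE arm had 535 and the WT arm 4486. Leaving out those 7 takes libraries from 3 of the 4 conditions but not from WT ADX. Age went largely with surgery in WT, where ADX mice were 12 to 17 weeks old and sham mice 9 to 12. With age as a covariate the WT arm had 3853 calls, the RE-RE arm 1872 and the interaction 2178. Because the WT ages met only at 12 weeks, that fit cannot fully separate age from adrenalectomy in WT. Over the 11353 genes with no value at 0, the median size of the ADX minus sham difference was 0.0903 in RE-RE and 0.147 in WT on the log2 scale, while the median standard errors were alike, 0.062 in RE-RE and 0.0645 in WT. Across these genes, which are not independent replicates, the RE-RE and WT differences correlated at r = 0.34. Set against WT directly, RE-RE differed in 6626 genes after ADX (55.2%) and in 4433 after sham (36.9%). Of the interaction calls, 2681 had the same sign at ZT0 and ZT12, and 549 were also called in RE-RE and 2212 in WT. The calls just inside the threshold were Gm20544 (0.60), E130311K13Rik (-0.32) and Dpysl2 (-0.32), and those just outside it were Gm11633 (0.26), Alyref2 (0.54) and Jtb (-0.12).

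The genotype of the responding arm split the calls. A response was called shared where RE-RE and WT both passed the test in 1 direction and the interaction did not, which held for 793 genes (6.61% of those tested), 243 rising and 550 falling. WT-specific responses, called in WT and by the interaction but not in RE-RE, numbered 1998 (16.6%), 657 rising and 1341 falling in WT. RE-RE-specific responses numbered 335 (2.79%), 116 rising and 219 falling in RE-RE. A further 122 genes (1.02%) were called in both arms in opposite directions, and 92 (0.767%) moved the same way by different amounts, 87 of them more in WT and 5 more in RE-RE. The remaining WT calls, 2343 genes (19.5%), and the remaining RE-RE calls, 607 genes (5.06%), could not be placed, because the difference between the arms missed the test. Without the 7 libraries that stand apart, 257 genes were shared, 1003 WT-specific and 82 RE-RE-specific. With age as a covariate, 705 were shared, 1502 WT-specific and 297 RE-RE-specific. An interaction that missed the test does not show equal responses: the median standard error of the interaction was 0.0894, close to the median size of a response. Called in both arms were 1007 genes, 885 of them in the same direction. The 1007 are 51.7% of the RE-RE calls and 18.8% of the WT calls. Of all genes, 44.6% were called in WT and 16.2% in RE-RE, so both shares were little above those of all genes.

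**Figure D1:**
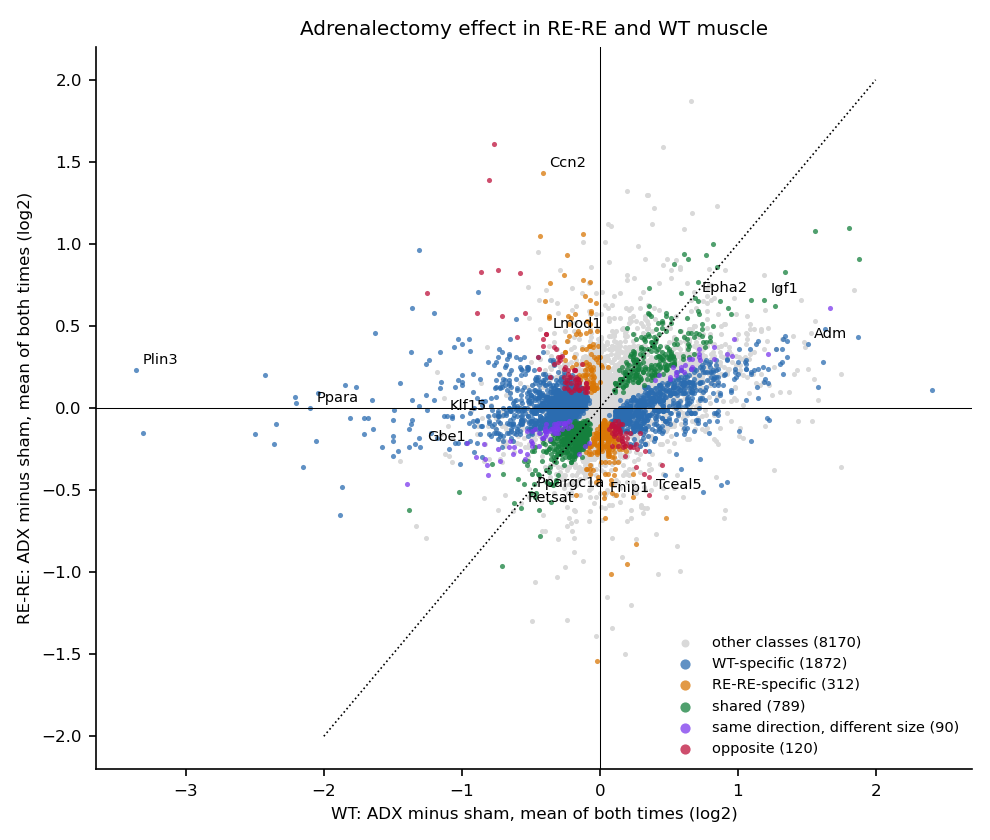
Each point is 1 of the genes with no value at 0. The x axis is the WT difference ADX minus sham and the y axis the RE-RE difference, both on the log2 scale as means of ZT0 and ZT12, coloured by class, with the dotted line where the arms are equal. WT-specific genes such as Plin3 (RE-RE 0.23, WT -3.36) lie along the horizontal axis, shared genes such as Ppargc1a (RE-RE -0.52, WT -0.50) near the dotted line, and Lmod1 (RE-RE 0.45, WT -0.39) in an opposite quadrant.

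Glucocorticoid receptor targets fell in WT muscle after adrenalectomy and, for the most part, did not pass the test in RE-RE muscle. Of 30 tested targets, 1 rose and 1 fell in RE-RE (5.46% and 10.8% of all genes), whereas 18 fell in WT (26.5% of all genes). By the interaction, 13 were higher in RE-RE (13.8% of all genes). The median interaction over the list was 0.67 beside -0.00 for all genes, made up of -0.06 in RE-RE and -0.80 in WT. By time the RE-RE list median was 0.20 at ZT0 and -0.37 at ZT12, so the value near 0 spans opposite signs. Leaving out the libraries that stand apart, 9 were higher and 1 lower by the interaction, and 18 fell in WT. Since 12 of the 30 had a value at 0, the medians depend in part on such values.

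Klf15 (ENSMUSG00000030087, chromosome 6, 90462576 to 90475238), a transcription factor of amino acid and lipid use that the receptor induces directly, showed this plainly. At ZT0 it had 14.4, 16.6, 15.8 and 15.1 FPKM in RE-RE ADX, 10.4, 14.8, 17.6 and 13.5 in RE-RE sham, 7.36, 4.32 and 5.01 in WT ADX, and 10.1, 12.4, 6.98 and 9.66 in WT sham. The ZT12 values were 21.7, 15.8, 18.9 and 19.6 in RE-RE ADX, 21.2, 23.0, 24.9 and 21.7 in RE-RE sham, 7.37, 7.35, 7.37 and 7.29 in WT ADX, and 23.8, 17.9, 18.0 and 20.9 in WT sham. The WT groups were apart at ZT12 and overlapped by 1 library at ZT0, and the RE-RE groups overlapped at both times. The interaction was 1.08 ± 0.15 (log2, SE; limma adjusted p = 1.97e-06), from -0.05 ± 0.10 in RE-RE and -1.13 ± 0.11 in WT.

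Glul (ENSMUSG00000026473, chromosome 1, 153899944 to 153909723), glutamine synthetase, had 29.3, 58.8, 54.6 and 56.7 FPKM at ZT0 in RE-RE ADX, 42.9, 36.1, 38.0 and 49.0 in RE-RE sham, 17.1, 16.6 and 21.5 in WT ADX, and 21.2, 25.4, 16.2 and 27.6 in WT sham. At ZT12 the values were 104, 62.5, 64.1 and 89.4 in RE-RE ADX, 65.7, 113, 119 and 104 in RE-RE sham, 34.9, 40.8, 39.6 and 21.3 in WT ADX, and 129, 89.8, 111 and 113 in WT sham. Here too the WT groups were apart only at ZT12, and the WT ADX libraries lay below every RE-RE library at that time. Its interaction was 0.95 ± 0.21 (limma adjusted p = 0.00105), and those of the transcription factors Klf9 and Cebpb were 0.57 ± 0.10 and 1.53 ± 0.27.

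Not every target followed. Tsc22d3 (GILZ), an anti-inflammatory mediator, was -0.12 ± 0.09 in RE-RE and fell by 0.28 ± 0.09 in WT, and its interaction of 0.16 ± 0.13 did not pass (limma adjusted p = 0.384). Its fall in WT missed the test without WT ADX replicate 2 at ZT0 (-0.24, adjusted p = 0.0541). The sulfotransferase gene Sult1a1 rose in RE-RE (0.25 ± 0.08) and was -0.20 ± 0.09 in WT, with an interaction of 0.44 ± 0.12 that passed. The RE-RE rise of Sult1a1 was 0.29 without the libraries that stand apart (limma adjusted p = 0.0951). The ubiquitin ligase gene Trim63 had -0.08 in RE-RE and -0.12 in WT and passed in neither arm.

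**Figure D2:**
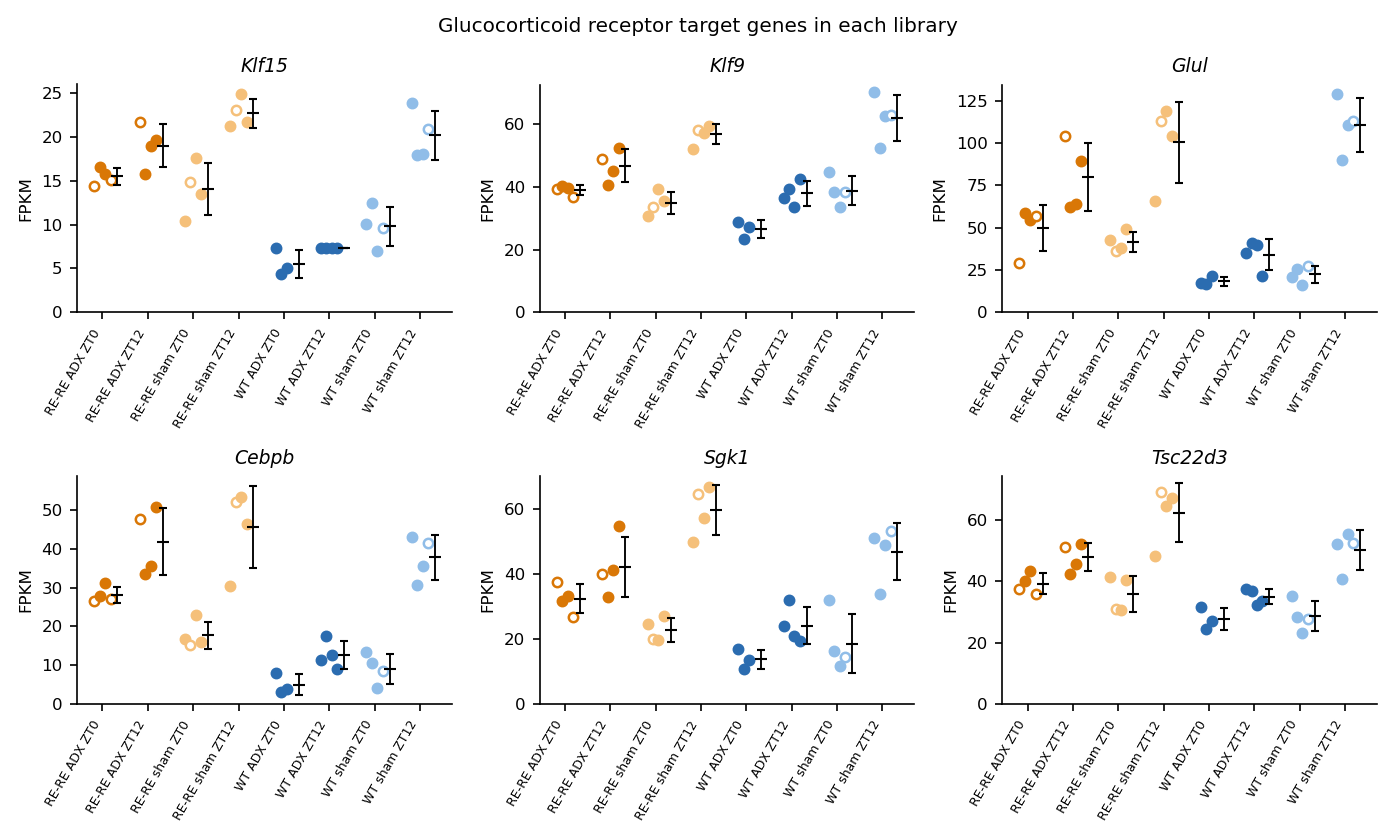
FPKM of 6 glucocorticoid receptor targets in each library (points; open circles are the libraries that stand apart) with the group mean ± SD beside them in black, n = 4 per group and 3 for WT ADX at ZT0. In Klf15 the WT ADX libraries lie at 4.32 to 7.37 FPKM at both times, below all RE-RE libraries, whereas Tsc22d3 overlaps more.

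The targets were also read at each time. At ZT12, 1 of the 30 targets fell in RE-RE (3.55% of all genes did) and 19 in WT (16.6%), with list medians of -0.37 in RE-RE and -1.10 in WT. At ZT0, 2 rose in RE-RE (1.56%), and 6 fell and 1 rose in WT (19.4% and 12.6%). The list medians at ZT0 were 0.20 in RE-RE and -0.02 in WT. The WT difference between the times was not tested, WT ADX had 1 library fewer at ZT0, and the interaction differed between the times in 1 of the 30 (0.075% of all genes), Pik3r1. Pik3r1, a regulatory subunit of PI3-kinase, had 2.9, 3.04, 3.54 and 7.32 FPKM at ZT0 and 6.64, 3.71, 4.21 and 5.89 at ZT12 in RE-RE ADX. In RE-RE sham it had 2.36 to 3.79 at ZT0 and 4.82 to 8.3 at ZT12. In WT ADX it was listed at 0 in 6 of 7 libraries and had 0.269 in the other. In WT sham it was listed at 0 in 4 of 4 libraries at ZT0 and had 7.58, 2.74, 5.57 and 5.74 at ZT12. RE-RE muscle therefore held Pik3r1 reads in every library, and WT muscle mainly after sham surgery at ZT12. Fkbp5, a receptor co-chaperone induced by glucocorticoids, was listed at 0 in 7 of 7 WT ADX libraries and 4 of 4 WT sham libraries at ZT0, and had 6.81, 0, 0.475 and 2.9 FPKM in WT sham at ZT12. In RE-RE it had 1.5 to 10.4 FPKM after ADX and 1.01 to 6.93 after sham.

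The promoters of genes in these classes were searched for the palindromic glucocorticoid response element, written GNACANNNTGTNC, which reads the same on both strands, and for the E-box CACGTG that BMAL1 and CLOCK bind, also its own reverse complement. RefSeq (GRCm38.p6) gave a window of 300 bases, 250 before and 50 after the start, for 8569 of the 12000 genes. The response element stood in 39 windows (0.455%). It was in 16 of 1027 windows of genes that fell in WT alone (1.56%) and 1 of 499 of those that rose in WT alone (0.2%). Shared falls had it in 3 of 417 (0.719%), shared rises in 2 of 186 (1.08%), and RE-RE-specific falls and rises in 0 of 158 and 0 of 71. The target list held it in 3 of 25 windows (12%), those of Sgk1, Trim63 and Mt1. The E-box was in 12.1% of all windows, 10.8% of those of WT-specific falls, and 28 of 158 (17.7%) of those of RE-RE-specific falls. A match is a description of letters in a window and not a binding site, and no difference between these shares was tested.

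Shown here are the promoters of 4 WT-specific genes, chosen after their values were seen, because each holds the element and each was high in WT sham at ZT12 and low in WT ADX. Capitals mark the element. Its first base lies 188 bases before the RefSeq start in Sgk1 (chr10:21993640-21993939, plus strand), 118 in Fam107a (chr14:8309730-8310029, minus strand), 163 in Slc10a6 (chr5:103629354-103629653, minus strand) and 181 in Map3k6 (chr4:133240568-133240867, plus strand).
Sgk1: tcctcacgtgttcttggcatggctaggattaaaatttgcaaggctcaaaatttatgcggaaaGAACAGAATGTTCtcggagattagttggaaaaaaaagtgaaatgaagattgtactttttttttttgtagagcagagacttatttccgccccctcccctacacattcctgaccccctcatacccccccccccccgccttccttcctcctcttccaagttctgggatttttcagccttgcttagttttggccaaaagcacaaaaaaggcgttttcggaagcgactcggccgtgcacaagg
Fam107a: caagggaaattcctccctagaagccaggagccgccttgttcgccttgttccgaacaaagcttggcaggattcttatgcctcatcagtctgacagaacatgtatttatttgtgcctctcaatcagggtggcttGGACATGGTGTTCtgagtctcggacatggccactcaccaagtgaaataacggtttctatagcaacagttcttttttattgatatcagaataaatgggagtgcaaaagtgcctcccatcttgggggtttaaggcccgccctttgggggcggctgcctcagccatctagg
Slc10a6: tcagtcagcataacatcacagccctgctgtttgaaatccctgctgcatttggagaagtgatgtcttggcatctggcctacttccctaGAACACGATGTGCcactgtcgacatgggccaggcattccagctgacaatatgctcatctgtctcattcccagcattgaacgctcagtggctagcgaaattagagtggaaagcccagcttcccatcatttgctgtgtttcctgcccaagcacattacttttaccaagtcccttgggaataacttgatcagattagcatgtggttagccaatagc
Map3k6: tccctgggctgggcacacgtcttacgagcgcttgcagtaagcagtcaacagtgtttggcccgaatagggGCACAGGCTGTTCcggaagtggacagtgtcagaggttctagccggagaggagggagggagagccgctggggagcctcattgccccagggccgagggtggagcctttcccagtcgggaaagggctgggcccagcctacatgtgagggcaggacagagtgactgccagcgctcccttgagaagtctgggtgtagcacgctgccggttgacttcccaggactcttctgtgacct

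Sgk1, a kinase of salt and glucose transport, had 37.7, 31.7, 33.4 and 26.8 FPKM at ZT0 in RE-RE ADX, 24.7, 20, 19.6 and 27.2 in RE-RE sham, 16.8, 10.9 and 13.5 in WT ADX, and 32.1, 16.2, 11.8 and 14.3 in WT sham. Values at ZT12 were 39.9, 32.8, 41.4 and 54.7 in RE-RE ADX, 49.9, 64.7, 57.2 and 66.8 in RE-RE sham, 24.0, 32.1, 21.0 and 19.3 in WT ADX, and 51.2, 34.0, 49.1 and 53.4 in WT sham. WT ADX lay below WT sham at ZT12 without overlap and overlapped it at ZT0. In Sgk1, RE-RE ADX was mostly above RE-RE sham at ZT0 and mostly below it at ZT12. Its interaction was 0.65 ± 0.21 (limma adjusted p = 0.0226), and 0.67 without the libraries that stand apart, where it no longer passed (adjusted p = 0.0871).

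Map3k6, a stress-activated kinase, had 0.176, 0.936, 0.903 and 0.901 FPKM at ZT0 and 2.21, 0.897, 0.909 and 2.1 at ZT12 in RE-RE ADX. In RE-RE sham it had 0.272, 0, 0.426 and 0 at ZT0 and 1.22, 2.93, 2.77 and 2.24 at ZT12. The WT ADX libraries had 0, 0.327 and 0.205 at ZT0, and all 4 at ZT12 were listed at 0. In WT sham it had 0.0773, 0.0469, 0 and 0.0377 at ZT0 and 3.27, 0.928, 2.51 and 2.71 at ZT12. The bile acid transporter family member Slc10a6 had 0.666 to 1.64 FPKM at ZT12 in RE-RE ADX, 1.27 to 2.18 in RE-RE sham, 0 to 0.181 in WT ADX and 0.923 to 2.22 in WT sham. Fam107a, an actin-associated stress gene, had 0.362 to 0.893 FPKM at ZT12 in RE-RE ADX, 0.549 to 1.36 in RE-RE sham, 0 to 0.0784 in WT ADX and 0.489 to 1.82 in WT sham. In all 3 the WT groups were apart at ZT12, and the RE-RE groups overlapped at that time. In RE-RE at ZT0 Map3k6 had 0.176 to 0.936 FPKM after ADX and 0 to 0.426 after sham, with replicate 1 of RE-RE ADX within the sham range. The test there (limma adjusted p = 0.0195) depends in part on sham libraries listed at 0.

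The receptor gene was also read. Nr3c1, the glucocorticoid receptor, was -0.04 in RE-RE, rose by 0.23 in WT, and did not pass by the interaction (-0.27). Of 11 receptors and partners tested, 2 were lower by the interaction (8.63% of all genes), both chaperones of the receptor complex. Hsp90ab1 fell in RE-RE by 0.14 ± 0.04 and was 0.02 ± 0.04 in WT. Ptges3 (p23) passed by the interaction alone (-0.23 ± 0.07).

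Mitochondrial respiration genes fell in WT as a group. Of 20 tested members of the oxidative phosphorylation list, 2 fell in RE-RE (10.8% of all genes) and 20 in WT (26.5%). By the interaction 18 were higher in RE-RE (13.8%). The count in RE-RE was near the share of all genes. List medians were -0.06 in RE-RE, -0.30 in WT and 0.25 for the interaction. Of the 20, 17 were WT-specific (16.6% of all genes). All 20 still fell in WT without the libraries that stand apart, and 12 passed by the interaction. Atp5a1, the alpha subunit of ATP synthase, had 750 to 926 FPKM in RE-RE ADX, 784 to 923 in RE-RE sham, 669 to 768 in WT ADX and 870 to 967 in WT sham. The WT groups did not overlap, and the RE-RE groups covered nearly the same range. Its interaction was 0.33 ± 0.05 (limma adjusted p = 2.04e-05).

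Of 20 tested genes of glucose handling, 3 fell in RE-RE (10.8% of all genes), 10 fell in WT (26.5%) and 6 were higher by the interaction (13.8%). Slc2a4 (ENSMUSG00000018566, chromosome 11, 69942539 to 69948188), the insulin-responsive glucose transporter GLUT4, had 122, 123, 140 and 137 FPKM at ZT0 in RE-RE ADX, 157, 150, 139 and 137 in RE-RE sham, 108, 100 and 81.3 in WT ADX, and 145, 145, 166 and 164 in WT sham. At ZT12 it had 149, 127, 122 and 162 in RE-RE ADX, 153, 142, 155 and 127 in RE-RE sham, 114, 115, 98.8 and 117 in WT ADX, and 192, 150, 169 and 159 in WT sham. WT ADX was below every other library at both times. The interaction was 0.54 ± 0.08 (limma adjusted p = 2.05e-05). The glycogen branching enzyme gene Gbe1 had 1.06 ± 0.15, the hexokinase gene Hk2 0.43, the glycogen synthase gene Gys1 0.34 and the phosphorylase kinase gene Phka1 0.58. Among the glycolytic genes, Pfkm (-0.31), Aldoa (-0.21) and Gpi1 (-0.11) fell in WT, while Pgk1, Ldha, Eno3 and Pkm passed in neither arm.

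Several genes of lipid droplets and triglyceride synthesis were WT-specific falls. Plin3 (ENSMUSG00000024197, chromosome 17, 56277476 to 56292873), a coat protein of lipid droplets, had 15.2, 9.12, 13.8 and 14.7 FPKM at ZT0 in RE-RE ADX, 8.41, 11.0, 18.9 and 9.44 in RE-RE sham, 0.19, 1.23 and 1.15 in WT ADX, and 15.1, 13.9, 13.3 and 15.4 in WT sham. The ZT12 values were 12.6, 13.8, 9.12 and 18.6 in RE-RE ADX, 10.7, 13.7, 13.4 and 7.04 in RE-RE sham, 4.84, 3.53, 2.47 and 4.54 in WT ADX, and 26.1, 11.7, 18.0 and 19.4 in WT sham. The WT ADX libraries lay below every other library, most of all at ZT0. The interaction was 3.60 ± 0.34 (limma adjusted p = 1.05e-09), from 0.23 in RE-RE and -3.36 in WT.

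Ppara (ENSMUSG00000022383, chromosome 15, 85734983 to 85802819), the fatty acid receptor that drives lipid oxidation genes, had 2.24 to 3.17 FPKM in RE-RE ADX, 1.85 to 3.69 in RE-RE sham, 0.293 to 1.09 in WT ADX and 1.31 to 3.87 in WT sham. WT ADX overlapped no other group, and the other 3 overlapped each other. Its interaction was 2.1 ± 0.22, and that of Dgat2, which makes triglyceride, 2.14 ± 0.34. Plin4, a further droplet protein, had 2.27 ± 0.46 and Acaca, acetyl-CoA carboxylase, 0.68. Of the 21 tested genes of lipid droplets, lipogenesis and adipocytes, 12 were higher and 2 lower by the interaction (13.8% and 8.63% of all genes). In RE-RE 7 rose and 1 fell (5.46% and 10.8%), and in WT 3 rose and 10 fell (18.1% and 26.5%). The members are of several kinds: Plin2 and Fabp4 were the 2 lower ones and rose in WT (0.21 and 0.33). Adipocyte markers are not a separate set, because all of them but Cfd are also members of this list. Summed FPKM of 5 adipocyte markers was 11.2 to 27.4 in RE-RE ADX, 0 to 20.9 in RE-RE sham, 2.59 to 20.8 in WT ADX and 7.28 to 31.7 in WT sham. All 5 had a value at 0, and 3 rose in RE-RE (5.46% of all genes). Their part in the result was not tested, and in whole muscle fewer cells of a type and less RNA per cell cannot be told apart.

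Several other WT-specific falls were in fibre and growth genes. Myh2, the myosin heavy chain of fast oxidative fibres, had 229 to 441 FPKM in RE-RE ADX, 299 to 562 in RE-RE sham, 19.7 to 189 in WT ADX and 122 to 669 in WT sham. Its interaction was 1.78 ± 0.41 (limma adjusted p = 0.00173), while that of Myh4, the myosin of most tibialis fibres, was -0.06 and did not pass. Ldhb, the lactate dehydrogenase subunit of oxidative fibres, had 74.8 to 105 FPKM in RE-RE ADX, 69.0 to 106 in RE-RE sham, 1.28 to 35.5 in WT ADX and 56.7 to 98.5 in WT sham. WT ADX overlapped no group in Ldhb and overlapped WT sham in Myh2. Of 16 fibre type genes, 1 fell in RE-RE (10.8% of all genes), and 1 rose and 5 fell in WT (18.1% and 26.5%). By the interaction 3 were higher (13.8%), with a list median of -0.05, so the list as a whole did not follow Myh2. The growth kinase gene Mtor fell by 0.49 ± 0.05 in WT with an interaction of 0.48 ± 0.07. Of 19 atrophy and autophagy genes, 4 fell in RE-RE (10.8% of all genes), 11 fell in WT (26.5%) and 3 were higher by the interaction (13.8%), the last close to the share of all genes. They included the ubiquitin ligase gene Fbxo31 (0.82 ± 0.09) and the autophagosome gene Map1lc3a (0.79 ± 0.10). Gsn, which severs actin filaments and is listed here as a fibroblast marker, fell by 1.5 ± 0.19 in WT and had an interaction of 1.43 ± 0.26.

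**Figure D3:**
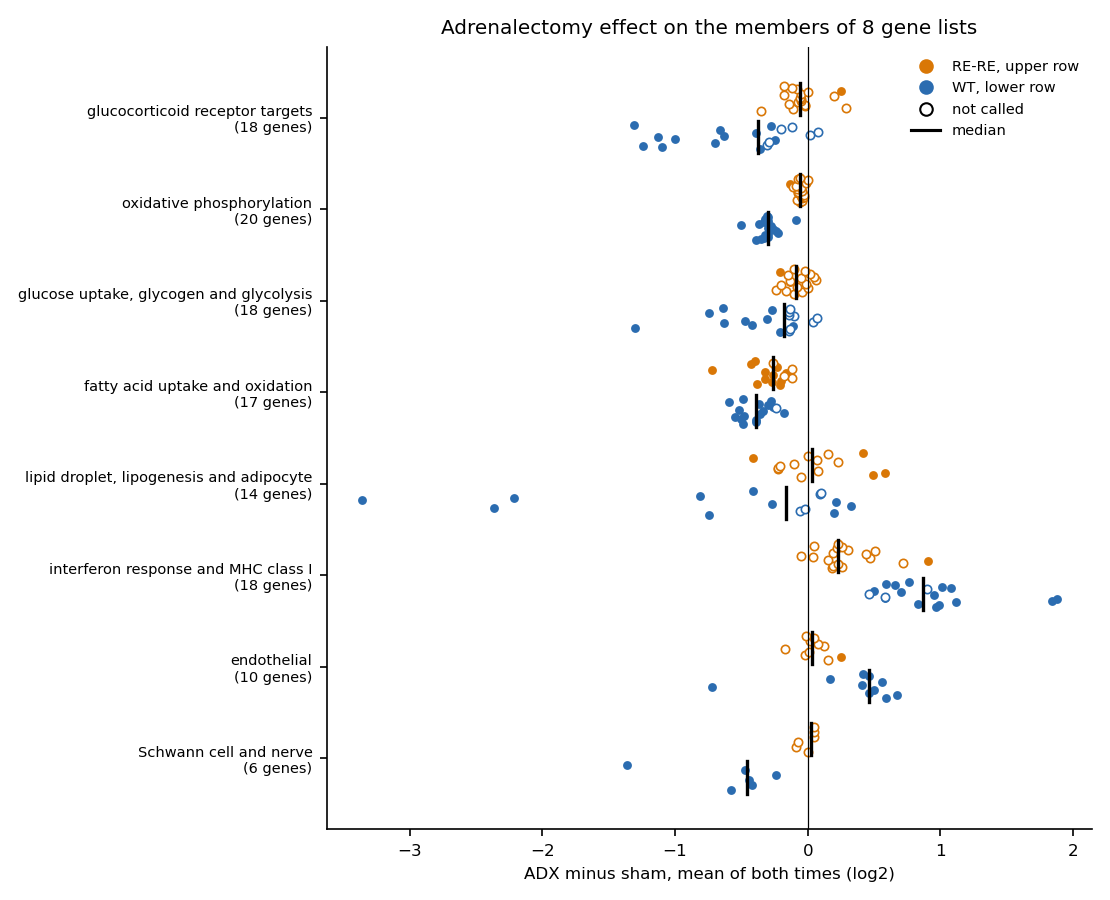
ADX minus sham differences (log2, mean of both times) of the members of 8 gene lists with no value at 0, RE-RE above and WT below in each list. Filled points passed the test, open points did not, and the vertical bar is the median. The oxidative phosphorylation genes lie apart by arm, with list medians of -0.06 in RE-RE and -0.30 in WT, while those of fatty acid oxidation lie below 0 in both.

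Fatty acid uptake and oxidation formed the main shared group. Of 18 tested genes, 13 fell in RE-RE (10.8% of all genes did) and 16 in WT (26.5%), 10 were shared (6.61%), and 2 were higher by the interaction (13.8%). The list medians were -0.25 in RE-RE and -0.38 in WT, with 0.15 for the interaction, beside -0.01, -0.02 and -0.00 for all genes. Leaving out the libraries that stand apart, 10 fell in RE-RE, 15 in WT, 9 were shared, and 0 of the 18 passed by the interaction in limma, 3 of them at an unadjusted p under 0.05. This list and oxidative phosphorylation had 10 of 18 and 1 of 20 members in the shared class, and 9 of 18 and 0 of 20 without those libraries. The shared class held 6.61% of all genes, so the 1 of 20 was near that share. That difference in counts was not tested.

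Acadl (ENSMUSG00000026003, chromosome 1, 66830839 to 66863277), the long-chain acyl-CoA dehydrogenase, had 143, 118, 161 and 141 FPKM at ZT0 in RE-RE ADX, 179, 196, 190 and 164 in RE-RE sham, 125, 140 and 154 in WT ADX, and 196, 175, 191 and 191 in WT sham. Values at ZT12 were 161, 151, 153 and 174 in RE-RE ADX, 235, 190, 213 and 197 in RE-RE sham, 141, 131, 147 and 171 in WT ADX, and 195, 201, 168 and 186 in WT sham. Within each genotype the ADX libraries were below the sham libraries at both times, apart from 1 WT ADX library at ZT12. The fall was 0.38 ± 0.06 in RE-RE and 0.39 ± 0.07 in WT, with a difference of 0.01 ± 0.09. Lpl, which frees fatty acids from blood lipoproteins, fell by 0.43 ± 0.09 in RE-RE and 0.59 ± 0.09 in WT. The carnitine carrier gene Slc25a20 fell by 0.40 in RE-RE and 0.49 in WT.

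Ppargc1a (ENSMUSG00000029167, chromosome 5, 51454250 to 51567726), encoding the mitochondrial coactivator PGC-1α, was shared. It had 4.73, 3.94, 4.7 and 4.69 FPKM at ZT0 in RE-RE ADX, 6.49, 6.53, 8.98 and 5.89 in RE-RE sham, 5.28, 5.3 and 4.94 in WT ADX, and 8.28, 6.83, 7.69 and 8.91 in WT sham. At ZT12 it had 4.31, 4.44, 3.69 and 5.15 in RE-RE ADX, 6.58, 6.12, 5.56 and 5.37 in RE-RE sham, 5.01, 4.82, 5.28 and 5.42 in WT ADX, and 8.48, 5.72, 7.22 and 5.85 in WT sham. No ADX library reached any sham library of its genotype and time. Ppargc1a fell by 0.52 ± 0.08 in RE-RE (limma adjusted p = 4.5e-05) and 0.50 ± 0.08 in WT (8.42e-06), and the interaction was -0.02 ± 0.12. The gene of a coactivator of respiration thus fell in both genotypes, whereas most of the respiration genes above passed in WT only. In RE-RE the median of those genes was -0.06, beside -0.01 for all genes. In limma 5 of the 20 had an unadjusted p under 0.05 in RE-RE. Whether the fall of Ppargc1a is linked to that of the respiration genes was not tested.

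Further shared falls were in varied roles. The mitophagy receptor gene Bnip3 had 32.7 to 44.9 FPKM in RE-RE ADX, 46.3 to 57.9 in RE-RE sham, 36.8 to 48.4 in WT ADX and 50.7 to 65.3 in WT sham, with no overlap of ADX and sham in either genotype. It fell by 0.41 ± 0.04 in RE-RE and 0.44 ± 0.05 in WT, with a difference of 0.03 ± 0.06. The insulin receptor gene Insr fell by 0.28 in both genotypes, the retinol saturase gene Retsat by 0.61 in RE-RE and 0.57 in WT, and the glycerophosphocholine enzyme gene Gpcpd1 by 0.46 in RE-RE and 0.48 in WT. These 6 genes, Acadl and Ppargc1a included, stayed shared without the libraries that stand apart and with age as a covariate.

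Shared rises were fewer. Epha2, an ephrin receptor kinase, had 1.76 to 2.19 FPKM in RE-RE ADX, 1.03 to 1.52 in RE-RE sham, 1.21 to 1.86 in WT ADX and 0.745 to 1.16 in WT sham, with ADX above sham in every library of both genotypes. It rose by 0.67 ± 0.08 in RE-RE and 0.69 ± 0.09 in WT. The matrix gene Cpxm1 (1.10 in RE-RE, 1.81 in WT) and the growth factor gene Igf1 (0.66 in RE-RE, 1.19 in WT) also rose in both. Both lost the RE-RE call without the libraries that stand apart. That of Igf1 was also lost without RE-RE sham replicate 1 at ZT0 (0.50, limma adjusted p = 0.072) and without RE-RE sham replicate 6 at ZT12 (0.56, 0.0543). Summed FPKM of 12 fibroblast markers was 535 to 792 in RE-RE ADX, 363 to 723 in RE-RE sham, 169 to 564 in WT ADX and 200 to 417 in WT sham. The median sums after ADX and sham were 690 and 486 in RE-RE and 294 and 276 in WT. The sums, which weigh abundant genes most, thus differed mainly in RE-RE. By gene, 2 of the 12 rose in RE-RE (5.46% of all genes), and 5 rose and 1 fell in WT (18.1% and 26.5%). The list medians were 0.21 in RE-RE and 0.51 in WT. Lum, 1 of the 12, is itself a shared rise. Tendon markers were at 82.3 to 142 FPKM in RE-RE ADX, 45.2 to 104 in RE-RE sham, 1.19 to 52.8 in WT ADX and 2.84 to 35.1 in WT sham. The median sums of tendon markers in WT were 11.2 after ADX and 11.1 after sham. By gene, 2 of 7 tendon markers rose in WT and 0 in RE-RE, and 5 of the 7 had a value at 0. The part of fibroblast and tendon markers in the shared rises was not tested.

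**Figure D4:**
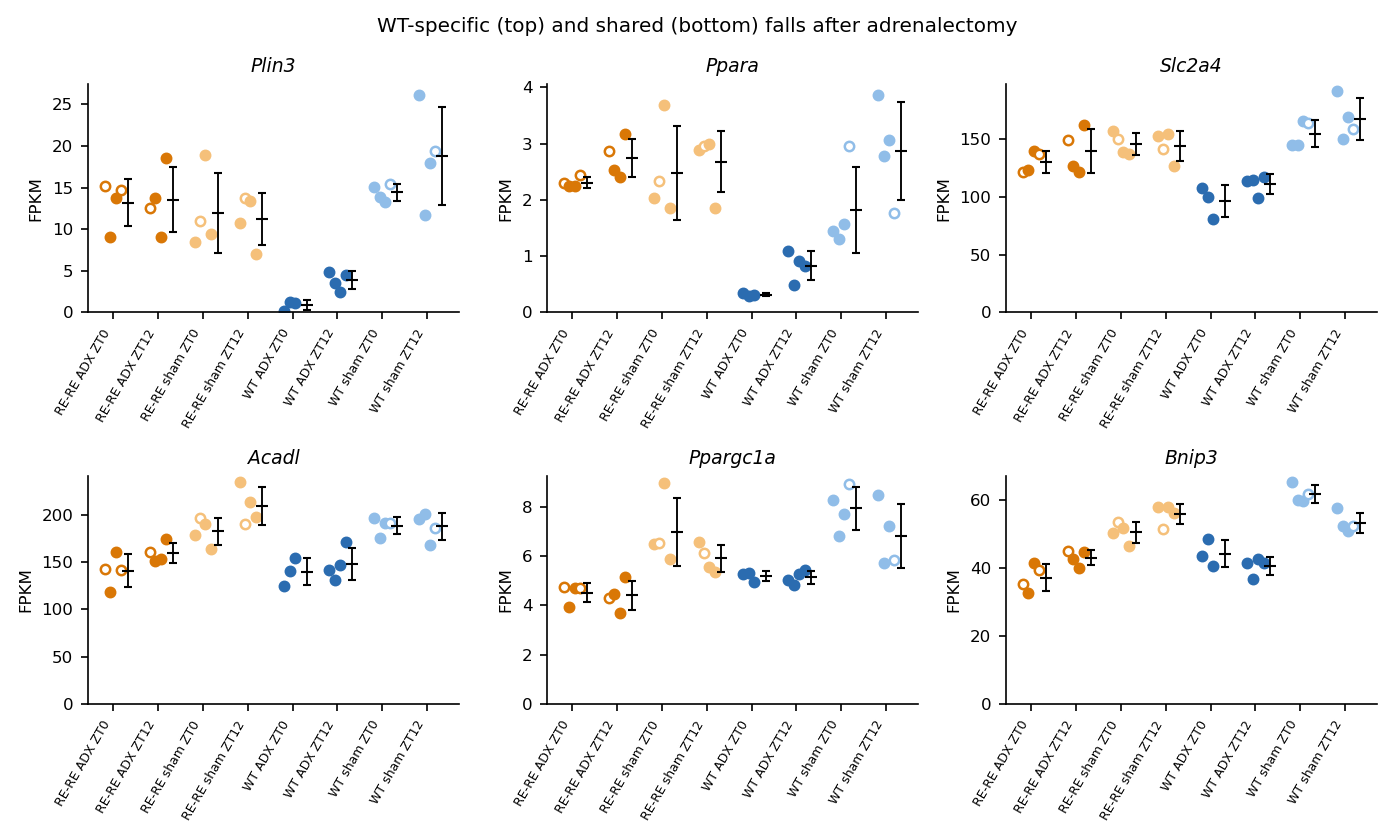
FPKM in each library (points; open circles are the libraries that stand apart) with group means ± SD in black, n = 4 per group and 3 for WT ADX at ZT0. The top row has WT-specific falls, with WT ADX at 0.19 to 4.84 FPKM in Plin3 below every other library, and the bottom row shared falls, with Bnip3 at 32.7 to 44.9 FPKM in RE-RE ADX against 46.3 to 57.9 in RE-RE sham.

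Vessel and interferon genes rose in WT, and most of the vessel markers and a few interferon genes were lower by the interaction. Of 10 endothelial markers, 1 rose in RE-RE (5.46% of all genes), and 9 rose and 1 fell in WT (18.1% and 26.5%). By the interaction 7 were lower and 1 higher (8.63% and 13.8%), or 3 and 1 without the libraries that stand apart. Pecam1 (ENSMUSG00000020717, chromosome 11, 106654217 to 106750628), an adhesion molecule of endothelium, had 19.5, 20.4, 20.9 and 20.7 FPKM at ZT0 in RE-RE ADX, 17.1, 20.2, 21.0 and 18.0 in RE-RE sham, 30, 32.1 and 34.6 in WT ADX, and 21.5, 22.9, 21.2 and 21.5 in WT sham. The ZT12 values were 17.0 to 22.8 in RE-RE ADX, 18.5 to 21.1 in RE-RE sham, 27.6 to 31.3 in WT ADX and 20 to 20.5 in WT sham. WT ADX lay above all other libraries at both times. The interaction was -0.48 ± 0.09 (limma adjusted p = 0.000276). Flt1, a decoy receptor for VEGF, was the exception: it fell by 0.72 ± 0.07 in WT with an interaction of 0.54 ± 0.10. The summed markers were 123 to 165 FPKM in RE-RE ADX, 130 to 163 in RE-RE sham, 203 to 239 in WT ADX and 143 to 170 in WT sham. Adm, adrenomedullin, a vasodilator peptide of vessels and other cells, rose by 1.51 ± 0.17 in WT with an interaction of -1.13 ± 0.24.

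Of 18 interferon and antigen presentation genes, 1 rose in RE-RE (5.46% of all genes) and 15 rose in WT (18.1%). By the interaction 4 were lower (8.63%), Ifi27, B2m, H2-K1 and H2-D1. The list medians were -0.59 for the interaction, 0.23 in RE-RE and 0.87 in WT. B2m, the light chain of MHC class I, had 64.2 to 198 FPKM in RE-RE ADX, 89.0 to 123 in RE-RE sham, 173 to 507 in WT ADX and 99.7 to 129 in WT sham. The WT groups did not overlap, and 1 WT ADX library at ZT0 stood at 507 while the others were at 173 to 191. RE-RE ADX reached into the WT ADX range and varied more than RE-RE sham. The interaction of B2m missed the test without that library, WT ADX replicate 3 (-0.55, limma adjusted p = 0.0905), as did that of H2-D1 (-0.44, 0.0882). B2m also missed it without RE-RE ADX replicate 1 at ZT0 (-0.72, 0.0504), replicate 7 at ZT12 (-0.67, 0.0519) or replicate 8 at ZT12 (-0.69, 0.0558). Without the libraries that stand apart 0 of the 18 passed by the interaction in limma, 4 of them at an unadjusted p under 0.05, with B2m at -0.77 (adjusted p = 0.115) and H2-K1 at -0.83 (0.0783), while 12 still rose in WT. Reads of the MHC class I genes can be shared between near-identical copies. Of 6 Schwann cell genes, 6 fell in WT (26.5% of all genes) and 4 were higher by the interaction (13.8%), 1 of them without the libraries that stand apart. Macrophage markers had 7 of 10 rising in WT (18.1%) and 0 of 10 passing by the interaction in limma (22.5% of all genes passed), 4 of them at an unadjusted p under 0.05. Their sums were 37.7 to 53.1 FPKM in RE-RE ADX, 24.7 to 55.5 in RE-RE sham, 24.5 to 84.5 in WT ADX and 23.8 to 37.7 in WT sham.

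RE-RE-specific responses were few and included no list as a whole. Ccn2 (ENSMUSG00000019997, chromosome 10, 24595442 to 24598683), a matrix-associated growth factor, had 5.45, 6.05, 4.19 and 5.74 FPKM at ZT0 in RE-RE ADX, 0.992, 1.03, 2.65 and 0.728 in RE-RE sham, 6.06, 5.87 and 4.86 in WT ADX, and 4.12, 5.28, 5.24 and 6.16 in WT sham. Values at ZT12 were 5.48, 4.66, 4.06 and 5.38 in RE-RE ADX, 1.11, 4.99, 2.43 and 5.76 in RE-RE sham, 5.01, 2.01, 2.98 and 0.835 in WT ADX, and 6.66, 2.27, 4.56 and 4.91 in WT sham. RE-RE sham was low at ZT0 without overlap with any other group, and at ZT12 the groups overlapped. Ccn2 rose by 1.43 ± 0.28 in RE-RE, was -0.41 ± 0.29 in WT, and had an interaction of 1.84 ± 0.41 (limma adjusted p = 0.00111).

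Fnip1, a partner of the energy sensor AMPK, had 6.08 to 8.91 FPKM in RE-RE ADX, 7.26 to 13.4 in RE-RE sham, 9.23 to 14.4 in WT ADX and 8.6 to 11.7 in WT sham. It fell by 0.55 ± 0.10 in RE-RE, was 0.03 ± 0.11 in WT, and RE-RE ADX was below every WT ADX library. The Hsp40 co-chaperone gene Dnaja4 fell by 0.46 ± 0.10 in RE-RE (0.08 ± 0.10 in WT), and the deubiquitinase gene Otub2 rose by 0.76 ± 0.18 in RE-RE (-0.36 ± 0.19 in WT). All 4 stayed RE-RE-specific without the libraries that stand apart and with age as a covariate.

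In 3 of the genes described here the opposite directions held without the libraries that stand apart and with age as a covariate. How many of the 122 genes called in opposite directions would hold was not counted. Lmod1 (ENSMUSG00000048096, chromosome 1, 135324807 to 135368065), an actin nucleator of smooth muscle, had 1.02, 0.927, 0.971 and 1.04 FPKM at ZT0 in RE-RE ADX, 0.906, 0.695, 0.747 and 0.832 in RE-RE sham, 1.37, 1.4 and 1.17 in WT ADX, and 1.66, 1.86, 1.47 and 1.67 in WT sham. At ZT12 it had 1.16, 1.15, 1.27 and 1.01 in RE-RE ADX, 0.805, 0.977, 0.792 and 0.534 in RE-RE sham, 1.35, 1.28, 1.62 and 1.44 in WT ADX, and 2.02, 2.05, 1.62 and 2.08 in WT sham. RE-RE ADX was above RE-RE sham in every library of its time, and WT ADX was at or below WT sham, so the genotypes lay closer after ADX than after sham. The interaction was 0.85 ± 0.13 (limma adjusted p = 9.48e-06), from 0.45 ± 0.09 in RE-RE and -0.39 ± 0.09 in WT.

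Lrtm1, a leucine-rich repeat membrane protein gene, rose by 0.45 ± 0.09 in RE-RE and fell by 0.39 ± 0.09 in WT. It had 32 to 45.9 FPKM in RE-RE ADX, 24.5 to 33.1 in RE-RE sham, 14.5 to 24.4 in WT ADX and 21.7 to 30.6 in WT sham. Here the sham levels of the genotypes overlapped and the ADX levels did not. Tceal5, an X-linked gene of the elongation factor family, fell by 0.53 ± 0.10 in RE-RE and rose by 0.36 ± 0.11 in WT. It had 3.57 to 5.78 FPKM in RE-RE ADX, 6.08 to 8.21 in RE-RE sham, 5.87 to 8.62 in WT ADX and 4.83 to 6.39 in WT sham. RE-RE ADX overlapped neither RE-RE sham nor WT ADX. Among the lipid synthesis genes, Thrsp (0.42 ± 0.11 in RE-RE, -0.41 ± 0.12 in WT) and Agpat2 (0.43 ± 0.15 in RE-RE, -0.60 ± 0.16 in WT) passed in opposite directions. Both lost the RE-RE call without the libraries that stand apart (adjusted p = 0.0629 and 0.179) and the WT call with age as a covariate (0.157 and 0.0703).

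**Figure D5:**
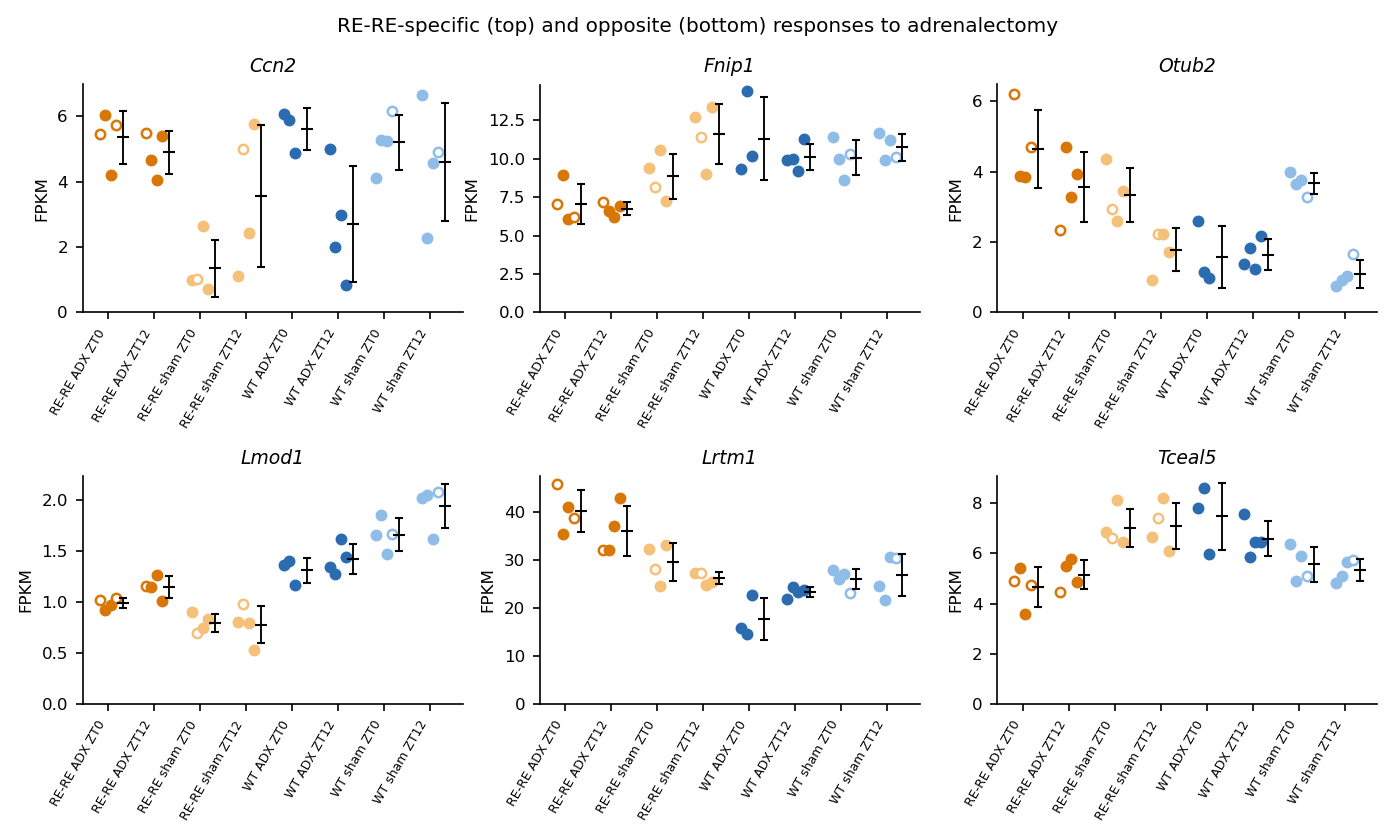
FPKM in each library (points; open circles are the libraries that stand apart) with group means ± SD in black, n = 4 per group and 3 for WT ADX at ZT0. The top row has RE-RE-specific genes, with Ccn2 at 0.728 to 2.65 FPKM in RE-RE sham at ZT0 against 4.19 to 6.05 in RE-RE ADX, and the bottom row genes with opposite directions, such as Tceal5 with RE-RE ADX at 3.57 to 5.78 FPKM below RE-RE sham.

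The clock genes themselves passed by the interaction over both times about as often as all genes. A mean over ZT0 and ZT12 can hide changes of opposite sign, such as those of Arntl. Of 19 tested core clock genes, 2 were higher and 3 lower by the interaction (13.8% and 8.63% of all genes). In RE-RE 1 rose and 2 fell (5.46% and 10.8%), and in WT 2 rose and 7 fell (18.1% and 26.5%). At ZT0 alone 6 rose and 4 fell in WT (12.6% and 19.4%). The interaction called 1 higher and 3 lower at ZT0 (7.38% and 3.29%), and 1 higher and 0 lower at ZT12 (4.82% and 1.62%). The repressor gene Per3 was -0.14 ± 0.10 in RE-RE, rose by 0.43 ± 0.11 in WT, and had an interaction of -0.57 ± 0.15. By time that of Per3 was -0.88 ± 0.21 at ZT0 (limma adjusted p = 0.00626) and -0.26 ± 0.20 at ZT12 (0.489). Nr1d1, Nr1d2, Per2, Cry1, Cry2 and Tef did not pass by the interaction. Of 14 rhythmic muscle output genes, 5 were higher and 1 lower by the interaction over both times (13.8% and 8.63% of all genes).

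Finally the interaction was compared between the times of day. At ZT12 it was called in 772 genes (6.43%), 578 higher (4.82%) and 194 lower (1.62%), and at ZT0 in 1280 (10.7%), 885 higher (7.38%) and 395 lower (3.29%). In all, 368 genes were called at both, 366 of them with the same sign. The counts were 227 at ZT12 and 275 at ZT0 without the libraries that stand apart. At ZT12 the count was 414 without RE-RE ADX replicate 8 and 476 without RE-RE sham replicate 8. The difference between the interactions was called in 9 genes (0.075%), 6 of them higher (0.05%) and 3 lower (0.025%), and in 767 at an unadjusted p under 0.05, so few genes could be shown singly to differ by time. It was called in 14 without WT sham replicate 6 at ZT12.

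Tacc2 (ENSMUSG00000030852, chromosome 7, 130577438 to 130764785), a microtubule-associated gene with a daily rhythm in muscle, had an interaction of 0.51 ± 0.25 at ZT12 and 2.44 ± 0.26 at ZT0, a difference of -1.93 ± 0.35 (limma adjusted p = 0.00844). The ZT12 values were 52.9, 47.8, 49.0 and 59.9 FPKM in RE-RE ADX, 42.9, 79.2, 72.4 and 72.0 in RE-RE sham, 42, 41.9, 37.1 and 41.5 in WT ADX, and 73.3, 66.4, 76.6 and 71.5 in WT sham. At ZT0 it had 54.1, 50.8, 42.9 and 57.1 in RE-RE ADX, 47.1, 36.1, 49.8 and 35.9 in RE-RE sham, 14.1, 7.2 and 7.46 in WT ADX, and 49.0, 41.9, 27.7 and 47.7 in WT sham. The low values were those of WT ADX at ZT0, which overlapped no other group. Without the libraries that stand apart the difference of Tacc2 was -1.57 and missed the test (0.433), as it did in a model of the 8 groups alone (-1.93, 0.103). Grb14, an adaptor that inhibits insulin receptor signalling, had 0.05 ± 0.13 at ZT12 and 0.95 ± 0.14 at ZT0, a difference of -0.90 ± 0.19 (0.0393). It had 3.86 to 4.41 FPKM at ZT0 in RE-RE ADX, 3.17 to 3.45 in RE-RE sham, 2.43 to 3.15 in WT ADX and 4.1 to 4.72 in WT sham, so that at this time ADX was above sham in RE-RE and below it in WT. The difference of Grb14 missed the test without any 1 of 20 single libraries, with the lowest size -0.80 and an adjusted p of 0.106 without WT ADX replicate 1 at ZT0. Tspan4, a tetraspanin, differed in sign, with 0.49 ± 0.13 at ZT12 and -0.76 ± 0.14 at ZT0, a difference of 1.25 ± 0.19 (0.000553), and it passed without each single library and without those that stand apart. It had 5.81 to 6.32 FPKM at ZT12 in WT ADX against 6.67 to 7.65 in WT sham, and at ZT0 4.42 to 5.37 in WT ADX against 2.08 to 2.9 in WT sham, while all RE-RE libraries lay between 3.17 and 4.5. The remaining 6 of the 9 genes, among them Pik3r1 and Gpx3, have a value at 0.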

How the data were processed

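RNA of tibialis anterior was sequenced from 31 mice of the 4 conditions compared, 1 library each. Reads were single-end, 60 bp long and 25 M per library on average, per the labels' protocols. The submitters' processing notes name HISAT2 2.1.0 and the build GRCm38, then edgeR 3.30.0 and featureCounts 1.6.2, and for read quality Trim Galore 0.5.0 beside FastQC 0.11.8. The deposited values are FPKM on a log2 scale for 13500 genes and 47 libraries. Their floor of -6.64 equals log2 of 0.01, so they were read as log2(FPKM + 0.01), a scale on which changes of low genes are large. Counts were not used here, and whether counting used strand is not given in the sources used here. Symbols came from GENCODE M21 (13446 IDs matched, 54 did not). Depth came from 68 genes at 0 in 30 or more libraries, whose other values were whole reads within 0.05 read in a median of 100% of cases per library (lowest 93.75%).

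Means of all 12 groups were fitted to the 47 libraries in R 4.3.3 with limma 3.58.1 (eBayes with trend, 35 residual degrees of freedom) for genes reaching 1 FPKM in at least 3 libraries, and two-sided p-values went through Benjamini-Hochberg adjustment over 12000 genes, with calls at an adjusted p under 0.05. Changes are log2 differences ± SE. Plots used matplotlib 3.10.9 under Python 3.11.15 with pandas 2.3.3 and numpy 2.4.6. The fit was tested on simulated data.

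The members, gene lists and classes were chosen with earlier results of these data known. Named genes, averaging 1 FPKM or more, with no value at 0 and no predicted-gene symbol, were the 10 highest and 10 lowest interactions with 1 sign at both times, the 8 largest shared rises and falls, the 6 largest of each genotype-specific direction and of the opposite class, and up to 4 members of each list with at least 3 interaction calls or shared members. Arntl, Nnt, Wdfy1 and 6 receptor targets were always included. Genes outside this rule were chosen after their values were seen, and not every gene it names is described.

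Alternatives were log2(FPKM + 1), no filter, equal library medians, a model of the 8 groups alone, a block for replicate number, age as a covariate, leaving out genes with a value at 0, leaving out the libraries that stand apart, and leaving out each library in turn.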

Additional observations from a re-analysis of the deposited data

Results flagged for a closer look

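In each group of 4 libraries with no value at 0, every gene named with values in the report was checked for a single library far from the other 3. Of 547 such groups, 24 (4.39%) held one, and chance gives about 1 in 20. Of the 24, 8 lay in libraries that stand apart.

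Among RE-RE ADX libraries at ZT0, replicate 1 was lowest in Glul (29.3 FPKM, the others 54.6 to 58.8), Sult1a1 (9.48, the others 10.8 to 11.0), Dgat2 (9.08, the others 13.5 to 14.1) and Map3k6 (0.176, the others 0.901 to 0.936). Replicate 2 was lowest in Acaca (0.593, the others 0.701 to 0.716) and Ppargc1a (3.94, the others 4.69 to 4.73), replicate 3 was lowest in Insr (6.91, the others 7.56 to 7.65), and replicate 4 was highest in Myh2 (325, the others 229 to 242). In RE-RE sham at ZT0, Pgk1 was highest in replicate 1 (136, the others 111 to 113) and Mtor in replicate 2 (6.19, the others 5.55 to 5.63). In RE-RE sham at ZT12, Tacc2 was lowest in replicate 5 (42.9, the others 72.0 to 79.2), Insr highest in replicate 6 (9.6, the others 9.06 to 9.1), Nr3c1 lowest in replicate 7 (18.6, the others 20.4 to 20.8) and Ppara lowest in replicate 8 (1.86, the others 2.89 to 3.0).

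Among WT ADX libraries at ZT12, replicate 7 was highest in Insr (8.08, the others 6.71 to 6.91) and Mtor (4.98, the others 4.16 to 4.29) and lowest in Thrsp (5.89, the others 7.39 to 7.65). Gpcpd1 was lowest in replicate 4 (51.4, the others 55.6 to 56.4), and replicate 6 was lowest in Ldha (799, the others 862 to 870) and Tacc2 (37.1, the others 41.5 to 42). In WT sham at ZT12, Atp5a1 was highest in replicate 5 (961, the others 870 to 885), Lmod1 lowest in replicate 7 (1.62, the others 2.02 to 2.08) and Igf1 highest in replicate 8 (0.486, the others 0.339 to 0.351). At ZT0 in WT sham, Thrsp was highest in replicate 3 (9.72, the others 5.69 to 6.0).

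Differences between the genotypes' responses were tested directly by limma. They passed in 2695 genes over both times, and the interaction itself differed between ZT12 and ZT0 in 9, among them Tacc2 (-1.93), Grb14 (-0.90) and Tspan4 (1.25), as differences on the log2 scale.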

How the results depend on the processing

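Without the libraries that stand apart, which leaves fewer libraries in 3 conditions, limma called the interaction in 1174 genes over both times, 227 at ZT12 and 275 at ZT0. The RE-RE arm then had 535 calls and RE-RE minus WT after sham 2936, with 257 shared, 1003 WT-specific and 82 RE-RE-specific genes. Leaving out single libraries gave 2311 to 2866 interaction calls over both times, 414 to 905 at ZT12, and 6 to 14 for the ZT12 minus ZT0 difference. That difference was called in 5 genes in a model of the 8 groups alone, 2 with genes at 0 left out, and 4 with the replicate number as a block. The block gave 2578 interaction calls over both times and 484 at ZT12. Over 45 pairs of same-numbered libraries the deviations correlated at r = -0.0951 to 0.247, 7 of them over 0.1. Among WT sham, WT ADX and RE-RE sham at ZT0, replicates 1 and 3 had 0.127 to 0.247 and replicate 2 had -0.0466 to 0.04. Libraries of different number were not compared, so whether the numbers mark pairs was not settled. With age as a covariate the interaction had 2178 calls and the WT arm 3853. In the 8-group model 324 genes were lower by the interaction at ZT12. The cause of these changes was not tested. Of 137 calls and values of named genes, none reversed and 94 kept their side of the threshold in every alternative. Calls were lost in 39 without the libraries that stand apart, 17 under the block, 13 with age, 12 in the 8-group model and 2 on the log2(FPKM + 1) scale. Depth limits genes under about 1 FPKM, and the exact zeros limit any fold of the genes that hold them.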

Other observations

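In signalling by insulin, IGF and mTOR, 18 genes were tested. Of these, 4 were higher and 2 lower by the interaction in limma (13.8% and 8.63% of all genes). In RE-RE 2 rose and 2 fell (5.46% and 10.8%), and in WT 5 rose and 7 fell (18.1% and 26.5%). Irs1, which couples the insulin receptor to PI3-kinase, was -0.14 ± 0.10 in RE-RE and rose by 0.33 ± 0.11 in WT (interaction -0.47 ± 0.15). Grb10, an adaptor that dampens insulin signalling, was 0.07 ± 0.08 in RE-RE and rose by 0.43 ± 0.08 in WT (interaction -0.36 ± 0.12). Tsc2, an inhibitor of mTOR, was -0.01 ± 0.04 in RE-RE and fell by 0.23 ± 0.04 in WT (interaction 0.21 ± 0.06). Without the libraries that stand apart, 3 of the 18 passed by the interaction, all higher, and 7 had an unadjusted p under 0.05. The interactions of Irs1 (-0.44, limma adjusted p = 0.117), Grb10 (-0.37, 0.098) and Tsc2 (0.21, 0.0531) then missed the test.

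Of 12 immediate stress genes, 3 were lower by the interaction (8.63% of all genes), and 3 rose in WT (18.1%). Ier2, induced within minutes of a stimulus, was 0.18 ± 0.18 in RE-RE and rose by 1.2 ± 0.19 in WT, with an interaction of -1.02 ± 0.26 (limma adjusted p = 0.00402). The other 2, Fosb and Egr1, have values at 0. Of the 12, 1 was lower by the interaction without the libraries that stand apart. Of 13 sterol synthesis genes tested, 0 passed by the interaction in limma (22.5% of all genes passed), 3 of them at an unadjusted p under 0.05. In RE-RE 2 rose and 1 fell (5.46% and 10.8%), and in WT 1 rose and 4 fell (18.1% and 26.5%). Of 6 neutrophil markers only Mmp9 had values, so a difference in neutrophils was not tested. Mmp9 had 10.8 to 16.2 FPKM in RE-RE ADX and 5.33 to 13.3 in RE-RE sham. In WT it had 0 to 1.45 after ADX and 0 to 5.71 after sham. The genotypes thus differed in the level of Mmp9 within each surgery, while its interaction did not pass.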
